A study of Mus musculus with 11 samples.

Results

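The interferon response and major histocompatibility complex (MHC) class I presentation genes were followed here in the pancreatic islets of mice that had given birth and of mice that had not. The set held 40 genes, matched by symbol, of the 55536 genes in each table of RNA-seq counts. It comprised 23 antiviral and cell-autonomous defence effectors, 4 transcription factors, 4 nucleic acid sensors, 1 brake on interferon signalling and 8 genes of class I presentation.

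All mice were wild type C57BL/6J females. Multipara mice entered the study at an age of 9 weeks, went through 3 pregnancies and were examined 3 weeks after the last delivery, and virgin littermates of the same starting age served as controls. S-961, a peptide that blocks the insulin receptor and so raises the demand on β cells, was given to some mice of each parity for 3 days. Bulk poly(A) RNA-seq of whole isolated islets gave 11 libraries: 2 virgin untreated, 2 multipara untreated, 3 virgin S-961 and 4 multipara S-961.

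Interferons are secreted proteins, and cells release those of type I on sensing foreign or misplaced nucleic acid. Type I interferons act through a complex that includes STAT2 and IRF9 and binds the interferon-stimulated response element (ISRE), and interferon γ, a product of T and NK cells, acts at the gamma-activated site (GAS). Both raise antiviral effectors, and both raise MHC class I, which carries peptides cut by the proteasome and pumped into the endoplasmic reticulum by TAP to the cell surface. In islets, class I on β cells is the surface that autoreactive CD8 T cells recognise in type 1 diabetes.

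Promoter sequences from RefSeq (GRCm38.p6, from 250 bases before to 50 bases after each gene's start) were at hand for 29 of the 40 genes. The letters GAAANNGAAA, a core of the ISRE read on both strands, were found in the windows of 14 of these 29 genes (48.3%), against 3.99% of the 27025 mouse genes with a window. The letters TTCNNNGAA, the form of a GAS and its own reverse complement, were found in 7 of the 29 (24.1%), against 9.55% of all genes, and 3 genes (*Oas1a*, *Bst2* and *Gbp7*) held both. The 5 stretches that follow belong to genes on which the results turn: *Ifit3*, *Isg15* and *Gbp2* were among the 6 genes with the smallest p in the parity comparison under S-961, *B2m* was the single class I gene with the ISRE letters, and *Irf1* held the GAS letters. Capitals mark one match in each, and the stretch of *Isg15* holds further matches in lower case.

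Ifit3: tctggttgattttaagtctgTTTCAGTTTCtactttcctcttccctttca
Isg15: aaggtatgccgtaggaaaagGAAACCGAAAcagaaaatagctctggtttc
Gbp2: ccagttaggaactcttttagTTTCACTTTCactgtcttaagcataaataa
B2m: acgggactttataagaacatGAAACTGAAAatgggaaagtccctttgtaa
Irf1: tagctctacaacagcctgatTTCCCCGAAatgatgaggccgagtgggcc

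These stretches lie at chr19:34583387-34583436 on the plus strand for *Ifit3*, chr4:156200861-156200910 on the minus strand for *Isg15*, chr3:142620584-142620633 on the plus strand for *Gbp2*, chr2:122147528-122147577 on the plus strand for *B2m* and chr11:53769904-53769952 on the plus strand for *Irf1*. Counted from the RefSeq start, the matches began at -122 in *Ifit3*, -72 in *Isg15*, -59 in *Gbp2*, -139 in *B2m* and -90 in *Irf1*. By role, the ISRE letters were in 10 of the 17 effectors with a window, 2 of 2 sensors, 1 of 4 transcription factors (*Stat2*) and 1 of 6 class I genes. A match in letters is not a measured binding site. The windows of *Irf7*, *Irf9*, *Oasl1*, *Oasl2*, *Ifi44*, *Xaf1*, *Trim25*, *Psmb9*, *Tap1*, *H2-K1* and *H2-D1* held neither set of letters.

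Library totals ran from 22028507 to 32234146 counts. Insulin transcripts made up 35.3% to 41.4% of an untreated library and 13.2% to 20.7% of one from S-961 mice, and acinar markers were high with S-961 (mean log2 CPM of 14 genes 6.05 to 8.72, against 1.86 to 3.06 untreated). Libraries of one group differed by more than counting noise, so none was a repeat of another. The labels do not say that replicates came from separate animals, so the p-values measure only the spread between these samples. In bulk RNA, fewer cells of a type and less RNA per cell cannot be told apart.

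A pair of libraries stood apart from their groups, and each result that rests on them is given with and without them. The library labelled multipara untreated 1 held 0.343% of its counts in the 40 genes, against 0.0994% to 0.151% in the other 10. The library labelled multipara S-961 4 lay towards the virgin S-961 libraries in its cell cycle markers, though not in every list. Its 16 cell cycle markers averaged 0.773 log2 CPM. The other 3 multipara S-961 libraries were at 3.43 to 4.67 and virgin S-961 islets at 0.574 to 1.38. Its 10 fibroblast and stellate markers averaged 3.90, against 4.01 to 4.78 in the other 3 and 3.14 to 3.25 in virgin S-961 islets.

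No gene of the set was at 0 in any library, and 38 of the 40 had a median of at least 1 CPM (counts scaled to library size, with TMM factors) over the 11 libraries. Per kilobase of exon, the class I heavy chain *H2-K1* (median 134 CPM per kb), the light chain *B2m* (126) and the heavy chain *H2-D1* (104) were the highest of the set. The next were *Ifi27*, an interferon-induced protein, at 19.3, *Trim25*, the ubiquitin ligase that activates RIG-I, at 10.4 and the peptide transporter subunit *Tap2* at 10.1 CPM per kb. At the other end stood *Oas3*, a 2-5A synthetase, at 0.0456 CPM per kb, *Zbp1*, the sensor of left-handed nucleic acid, at 0.273, and *Nlrc5*, the transactivator of class I genes, at 0.277. The heavy and light chains thus stood above every other member per kilobase, and *Nlrc5*, which drives them, near the bottom. *H2-K1* and *H2-D1* are near copies of each other and of other class I genes, as are *Ifit1*, *Ifit3*, *Oas1a* and the guanylate-binding proteins of their neighbours, and the counting divides shared reads between copies, so the split among them is uncertain.

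Over the 11 libraries the transcription factors *Irf1*, *Irf9* and *Stat2* ran from 20.7 to 71.9, 14.1 to 36.8 and 14.3 to 31.7 CPM. Among the effectors, the 2-5A synthetase *Oas1a* and its relative *Oasl2* ran from 3.02 to 12.5 and 5.32 to 25.6 CPM, and the GTPases *Mx2*, *Gbp3* and *Gbp7* from 0.929 to 3.16, 1.66 to 36.5 and 4.67 to 25.9 CPM. The viral RNA binders *Ifit1* and *Ifit2* ran from 1.75 to 11.7 and 0.997 to 7.45 CPM. *Ifit1* peaked in multipara S-961 2, *Mx2* as well, and the other genes named here in multipara untreated 1.

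**Figure D1:**
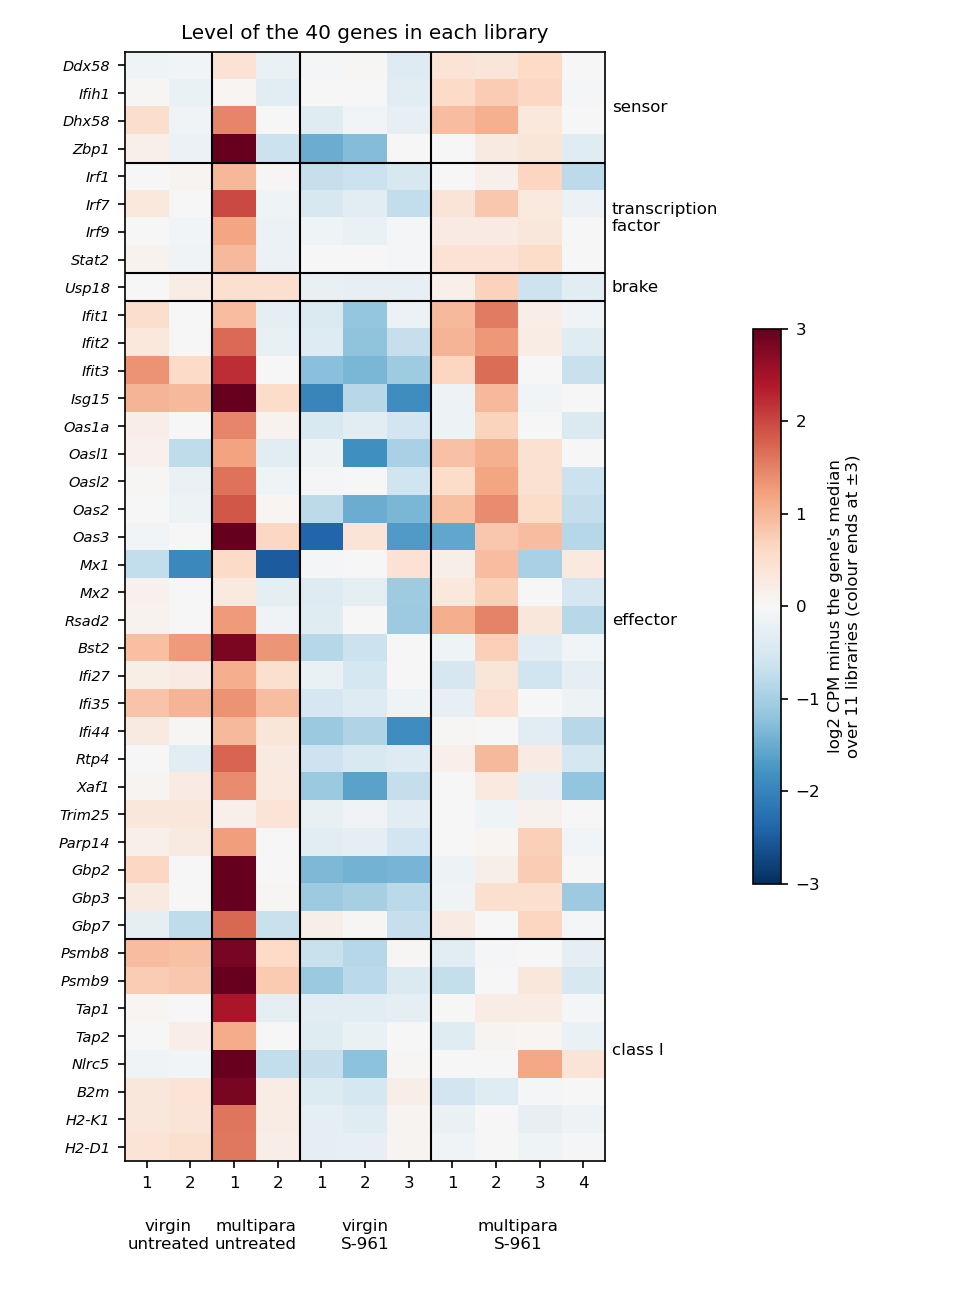
Level of each of the 40 genes (rows, by role) in each of the 11 libraries (columns, by group), as log2 CPM minus the gene's median over the libraries. The colours end at 3 above and below. The column of multipara untreated 1 is the highest of the 11 for 32 genes, and multipara S-961 2 is the highest for 6.

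The first question was whether islets of multipara and virgin mice differed under S-961. The parity labels were not checked here, so the direction of every parity difference rests on the labels as given. A swap of the virgin and multipara S-961 labels would turn the sign of every fold change in this comparison. For cell cycle genes, the authors reported lower levels in multipara than in virgin S-961 islets, the opposite of the direction found here. All 40 genes passed the filter on low counts among 16784 genes, and all 40 had a higher fitted level in multipara S-961 islets, with a median log2 fold change of 0.68 against 0.00 over all genes tested. With edgeR's quasi-likelihood test and Benjamini-Hochberg adjustment, however, 0 of the 40 passed an adjusted p of 0.05, and neither did any other gene (0% higher), the smallest adjusted p being 0.315. At an unadjusted p under 0.05, 22 of the 40 were higher and 0 lower, where 8.03% of all genes were higher. In 13 of the 40 all 4 multipara libraries lay above all 3 virgin libraries, as they did in 5.41% of all genes. DESeq2 on the same libraries called 4 of the 40 higher and 2.13% of all genes.

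The effectors led, with a median log2 fold change of 0.92 and 9 of 23 genes without overlap. The sensors had a median of 0.75 and the transcription factors of 0.56, and the 8 class I genes one of 0.21.

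*Gbp2*, an interferon-induced GTPase that attacks the vacuoles of intracellular pathogens (chr3:142620602-142638008), had the smallest unadjusted p of the 40. It stood at 1.61, 1.54 and 1.56 CPM in virgin S-961 libraries 1 to 3, and at 3.69, 4.65, 7.02 and 4.13 CPM in multipara S-961 libraries 1 to 4. Every multipara library lay well above the highest virgin one, multipara S-961 4 included. The log2 fold change was 1.66 ± 0.29 (SE, edgeR unadjusted p = 0.000314, adjusted p = 0.315).

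*Oas2* makes the 2-5A messenger that switches on RNase L (chr5:120730333-120749853). It measured 0.992, 0.604 and 0.663 CPM in virgin S-961 islets and 3.17, 4.59, 2.49 and 1.04 CPM in multipara S-961 islets. The groups did not overlap, but multipara S-961 4 was only just above virgin S-961 1. The log2 fold change was 1.92 ± 0.49 (SE, edgeR unadjusted p = 0.00356, adjusted p = 0.315).

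*Isg15*, a ubiquitin-like protein that is joined to other proteins and also secreted (chr4:156199424-156200818), was measured at 0.341, 0.755 and 0.365 CPM in virgin S-961 libraries. In multipara S-961 libraries it was at 1.21, 2.62, 1.27 and 1.34 CPM, so replicate 2 stood above 3 libraries that lay close together. The log2 fold change was 1.73 ± 0.46 (SE, edgeR unadjusted p = 0.00431, adjusted p = 0.315). *Isg15* rested on 11 to 25 reads in the virgin libraries and 44 to 88 in the multipara ones.

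*Ifit3*, which with its neighbours binds viral RNA that lacks the host cap (chr19:34583531-34588731), stood at 1.61, 1.48 and 1.82 CPM in virgin S-961 libraries. The 4 multipara libraries held 6.00, 12.2, 3.81 and 2.41 CPM. The order among the multipara libraries was the same as for *Oas2*, with replicate 2 highest and replicate 4 lowest. The log2 fold change was 1.90 ± 0.51 (SE, edgeR unadjusted p = 0.00458, adjusted p = 0.315).

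*Irf7*, the factor that amplifies type I interferon production (chr7:141262706-141266481), was at 3.78, 4.23 and 3.18 CPM in virgin S-961 islets and 6.86, 9.29, 6.51 and 4.63 CPM in multipara S-961 islets. Its log2 fold change was 0.89 ± 0.26 (SE, edgeR unadjusted p = 0.00743, adjusted p = 0.325). *Oasl1*, an inhibitor of *Irf7* translation (chr5:114923240-114937915), was at 1.18, 0.363 and 0.663 CPM against 2.40, 2.74, 1.81 and 1.31 CPM. Its log2 fold change was 1.5 ± 0.45 (SE, edgeR unadjusted p = 0.00873, adjusted p = 0.336). Both were separated between the groups, by a margin that replicate 4 made small.

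**Figure D2:**
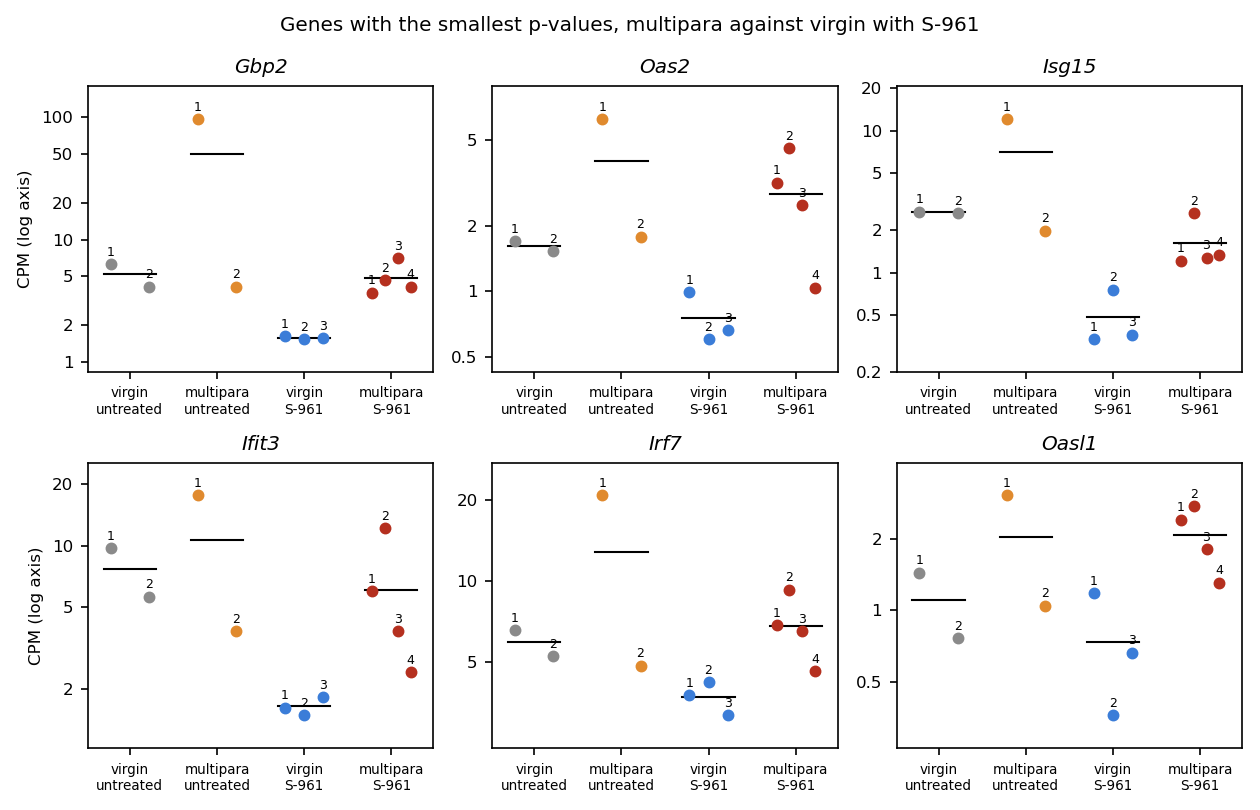
CPM on a log axis of the 6 genes with the smallest unadjusted p in the S-961 comparison, in each library of the 4 groups; digits are replicate numbers and the line is the group mean. Under S-961 all multipara points lie above all virgin points in each of the 6 genes, and in 4 of them (*Oas2*, *Ifit3*, *Irf7* and *Oasl1*) replicate 4 is the lowest multipara point.

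Among the other effectors, *Ifit2* (log2 fold change 1.42 ± 0.43, SE), *Ifit1* (1.35 ± 0.43), *Ifi44* (1.01) and the ADP-ribosyltransferase *Parp14* (0.62) also did not overlap between the groups. *Rsad2*, which encodes the antiviral enzyme viperin, had a log2 fold change of 1.19 ± 0.49, and its multipara S-961 4 value of 5.26 CPM lay within the virgin range of 4.35 to 9.31. The GTPase *Mx1*, by contrast, was at 1.36 to 1.89 CPM in virgin and 0.712 to 2.62 CPM in multipara libraries, with a log2 fold change of 0.10 ± 0.41. *Ifi27* was at 0.04 ± 0.23.

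The RNA sensors *Ddx58* (RIG-I) and *Ifih1* (MDA5) were at 12.5 to 16.6 and 10.3 to 12.8 CPM in virgin S-961 libraries, and multipara libraries 1 to 3 were above these at 20.9 to 24.5 and 19.0 to 21.8 CPM. In multipara S-961 4 they were at 16.3 and 12.5 CPM, inside the virgin ranges. *Dhx58*, the regulatory relative of both, did not overlap (1.92 to 2.33 against 2.44 to 5.15 CPM, log2 fold change 0.87). *Usp18*, the protease that removes ISG15 and dampens the type I receptor, was at 16.5 to 16.7 CPM in virgin and 12.6 to 31.4 CPM in multipara libraries (log2 fold change 0.30 ± 0.27).

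In class I presentation the transporter subunit *Tap1* alone did not overlap, at 10.9, 11.2 and 11.5 CPM in virgin S-961 libraries and 13.9, 16.2, 16.2 and 13.3 CPM in multipara S-961 libraries (log2 fold change 0.43). *Nlrc5* had the largest fitted difference of the 8, 1.04 ± 0.42 (SE), with 1.46, 0.997 and 2.42 CPM against 2.37, 2.35, 5.24 and 3.09. *B2m* was at 81.3, 75.7 and 123 CPM against 73.4, 83.9, 107 and 109 CPM, a log2 fold change of 0.02. *H2-K1* and *H2-D1* were at 0.05 and 0.09. For the heavy and light chains the virgin range under S-961 held most or all of the multipara libraries.

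Without multipara S-961 4, edgeR called 8 of the 40 higher in multipara S-961 islets. In that fit 2.69% of the 16590 genes tested were called higher, and the median log2 fold change of the set was 0.85. This library was singled out for lying towards the virgin S-961 libraries, so leaving it out favours a wider difference. Of the 7 fits that each left out 1 library, the other 6 called 0 of the 40. The 8 were *Oas2* (log2 fold change 2.19 ± 0.35, adjusted p = 0.015), *Gbp2* (1.74 ± 0.30, 0.0227), *Ifit3* (2.17 ± 0.41, 0.0295), *Ifih1* (0.78 ± 0.15, 0.0295), *Gbp3* (1.29 ± 0.26, 0.0412), *Irf7* (1.04 ± 0.22, 0.0454), *Ifit2* (1.65 ± 0.35, 0.0483) and *Irf1* (0.93 ± 0.20, 0.0488), with SE and edgeR's Benjamini-Hochberg adjusted p. In 25 of the 40 the 3 remaining multipara libraries lay above all virgin libraries, against 14.5% of all genes. None of the 8 class I genes was called without this library by edgeR (3 of the 8 were higher at an unadjusted p under 0.05), and their median was 0.25.

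Library by library, 28, 33 and 32 of the 40 genes in multipara S-961 1, 2 and 3 were above every virgin S-961 library, and 15 were in multipara S-961 4. Replicate 4 was the lowest of the 4 multipara S-961 libraries for 24 genes, and replicate 2 was the highest for 24. The mean log2 CPM of the 23 effectors was 1.54, 1.52 and 1.45 in virgin S-961 libraries and 2.35, 2.90, 2.32 and 1.79 in multipara S-961 libraries. That of the class I genes was 4.55, 4.51 and 5.03 against 4.79, 5.06, 5.24 and 4.97, so virgin S-961 3 fell among the multipara libraries for class I and not for the effectors.

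The cytokines themselves were barely detected. Of 21 interferon genes 15 had no count in any of the 11 libraries and none passed the filter on low counts. A floor of 3 counts was worth 0.0763 to 0.185 CPM, so lower levels could not be seen at this depth, and the floor covers counting error only. *Ifnb1* (interferon β) had 5, 4, 1 and 0 counts in multipara S-961 libraries 1 to 4, against 1, 0 and 0 in virgin S-961 libraries. *Ifng* (interferon γ) had at most 3 counts in each of the S-961 libraries.

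Of the 12 receptor, kinase and feedback genes of the pathway, 8 had a positive fold change under S-961, none passed the adjusted test of edgeR (2 of the 12 had an unadjusted p under 0.05) and the median was 0.13. The receptor chains *Ifnar1* (-0.07 ± 0.14), *Ifnar2* (0.26 ± 0.14) and *Ifngr1* (-0.15 ± 0.13) lay near 0, although *Ifnar2* did not overlap between the groups. The interferon λ receptor chain *Ifnlr1* did not overlap either, at 0.531 to 1.12 CPM in virgin and 1.34 to 1.90 CPM in multipara S-961 libraries (log2 fold change 0.87 ± 0.35, SE, edgeR adjusted p = 0.474). Of 44 further interferon-induced genes tested, 39 were positive with a median of 0.42. The chemokine *Cxcl10* was the furthest of those named, at 0.961, 0.272 and 0.697 CPM against 6.00, 10.7, 3.38 and 1.31 (log2 fold change 3.06 ± 0.72, SE, edgeR adjusted p = 0.315). Without multipara S-961 4, *Cxcl10* and *Herc6* were called higher and *Gbp8* lower in that list. In that fit 2.69% of the 16590 genes tested were called higher, and 78 genes lower.

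Several marker lists moved with the S-961 comparison, and their part in it was not tested. With the parity labels as given, which were not checked, cell cycle markers had a median log2 fold change of 3.07 (16 of 16 positive). The authors reported the opposite direction for cell cycle genes under S-961. Fibroblast and stellate markers had 1.36 (10 of 10), acinar markers 1.02 (13 of 14) and α cell markers 0.53 (8 of 8). Macrophage markers had a median of 0.05, with 8 of 14 positive and a summed level of 141 to 169 CPM in virgin and 99.5 to 200 CPM in multipara S-961 libraries. T, B and NK cell markers summed to 11.2 to 44.2 CPM in virgin and 11.7 to 56.6 CPM in multipara S-961 libraries, with *Cd3e* at or below 0.498 CPM in all 7 and at 0 in multipara S-961 2. For plasmacytoid dendritic cells, a main source of type I interferon, the median was 0.50 (6 of 8 positive), a list that holds *Irf7* and *Bst2* of the set. Outside the set, *Klk1* was at 1.25 ± 0.49 (SE), *Runx2* at 0.53 ± 0.76, *Ccr9* at 0.46 ± 0.68 and *Tcf4* at 0.14 ± 0.16. The exceptions, both negative, were *Siglech* (-0.10 ± 0.42, SE) and *Cox6a2* (-0.38 ± 0.21). Whether these genes came from that cell type in these islets was not tested.

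**Figure D3:**
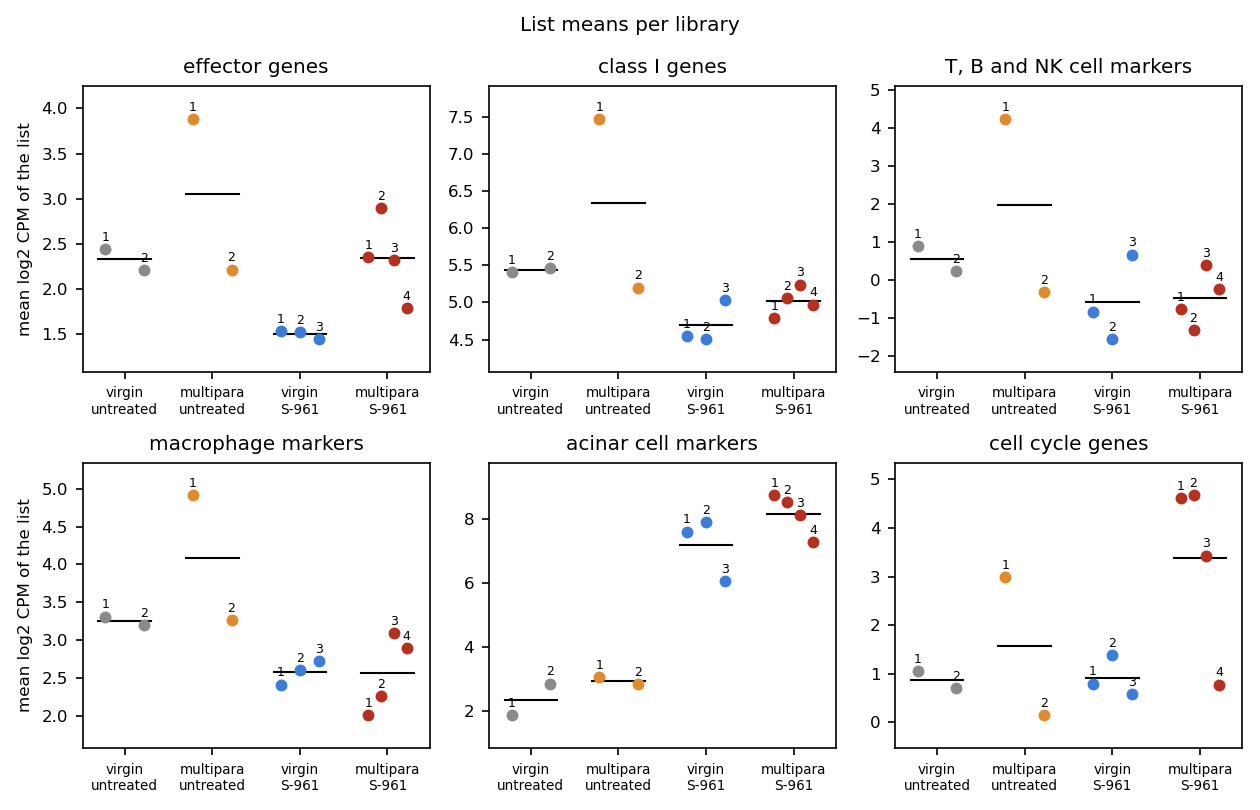
Mean log2 CPM per library of 6 gene lists (23 effectors, 8 class I genes, and the T, B and NK cell, macrophage, acinar and cell cycle markers) in the 4 groups; each point is a library with its replicate number. Multipara untreated 1 is the highest of the 11 for the effectors (3.88), class I (7.47), T, B and NK cell (4.23) and macrophage (4.91) lists, and multipara S-961 4 is at the virgin S-961 level for the cell cycle list.

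The second question was whether multipara and virgin islets differed without S-961. Here 38 of the 40 genes had a positive log2 fold change with a median of 0.88, against 0.02 over the 15812 genes tested, and class I had the largest median by role, 1.43. None of the 40 passed the adjusted test of edgeR (0% of all genes higher, smallest adjusted p 0.0561), and DESeq2 called none of the 40 and 0.139% of all genes higher. At an unadjusted p under 0.05, 3 of the 40 were higher, against 2.52% of all genes. In 9 of the 40 both multipara libraries lay above both virgin libraries, against 18.2% of all genes.

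These differences rested on the library labelled multipara untreated 1. It was above the other 3 untreated libraries for 39 of the 40 genes, by a median of 2.82-fold over their median, and by more than 2-fold for 30 genes and more than 4-fold for 11. All 8 class I genes were over 2-fold (median 4.29, range 2.17 to 14.7), and the effectors had a median of 2.90. The exception was *Trim25*, at 66.2 CPM against 75.6 to 80.1 CPM.

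*Gbp2* was at 97.1 CPM in multipara untreated 1, against 6.29 and 4.11 in virgin untreated 1 and 2 and 4.12 in multipara untreated 2. *Zbp1* was at 18.3 CPM, against 1.06, 0.846 and 0.615 in that order. *B2m* was at 783 CPM, against 138, 145 and 127. *Psmb9*, a catalytic subunit of the immunoproteasome, was at 61.8 CPM, against 12.9, 13.3 and 13.2, and *Nlrc5* at 32.4 CPM, against 2.20, 2.22 and 1.42. The other 3 untreated libraries lay close to one another in each of these genes, and multipara untreated 1 stood alone.

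The genes with the smallest unadjusted p were others. *Usp18* was at 19.4 and 22.5 CPM in virgin and 27.2 and 27.2 CPM in multipara untreated libraries (log2 fold change 0.42 ± 0.11, SE, edgeR unadjusted p = 0.0145, adjusted p = 0.719). *Ifi27* was at 32.2 and 33.5 against 60.4 and 39.4 CPM (0.65 ± 0.24, unadjusted p = 0.0452). *Oas3* was at 0.303 and 0.322 against 3.16 and 0.492 CPM (2.61 ± 0.97, unadjusted p = 0.0485). In these 3 both multipara libraries were above both virgin ones, but for *Oas3* and *Ifi27* multipara untreated 2 exceeded the virgin range by far less than multipara untreated 1 did.

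The interferon-induced receptor transporter protein *Rtp4* was at 3.90 and 3.10 against 13.1 and 4.68 CPM (1.40 ± 0.55, unadjusted p = 0.0579), and *Bst2*, the tetherin that holds virus particles at the membrane, at 11.9 and 15.5 against 44.6 and 15.9 CPM (1.20 ± 0.53, unadjusted p = 0.0799). *Gbp2* had a log2 fold change of 3.35 ± 1.45 (unadjusted p = 0.074), and the edgeR adjusted p of all 6 of these genes was 0.719.

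Without multipara untreated 1, 11 of the 40 were positive and 29 negative, with a median of -0.15. None was called by edgeR (0.135% of all genes were called higher and 0.191% lower). At an unadjusted p under 0.05, *Usp18* (0.38) and *Ifi27* (0.27) were higher, against 4.28% of all genes, and *Ifit3* (-1.01), *Psmb8* (-0.30) and *Tap1* (-0.32) lower, against 5.55%. *Gbp2* went to -0.33. Multipara untreated 2 was at 0.411 to 1.57 times the virgin untreated mean over the 40 genes (median 0.898). Without multipara untreated 2 instead, 32 of the 40 were called higher, against 8.81% of all genes, with a median of 1.36. Each of these fits leaves 1 multipara library, which is assumed to vary like the virgin ones.

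The same library differed in immune markers and in *Ifng*, and their part in the result was not tested. *Ifng* had 42 counts in multipara untreated 1, which was 1.82 CPM, against 3, 1 and 0 counts in the other untreated libraries. The interferon γ-induced chemokine *Cxcl9* was at 57.0 CPM against 0.738 to 1.86 CPM. The T cell receptor component *Cd3e* was at 6.97 CPM against 0.531, 0.483 and 0, the B cell receptor component *Cd79a* at 104 CPM against 19.6 to 27.6 CPM, and the pan-leukocyte *Ptprc* at 108 CPM against 6.69 to 12.4 CPM. T, B and NK cell markers summed to 447 CPM in that library, 37.0 CPM in multipara untreated 2 and 45.3 to 59.8 CPM in virgin untreated islets. In the fit, 13 of 13 of these markers were positive with a median log2 fold change of 2.85, and without that library the median was -1.28. Macrophage markers went from 1.01 (14 of 14 positive) to -0.01. Cell cycle markers averaged 2.99 log2 CPM in multipara untreated 1 and 0.144 to 1.05 in the other 3. Endocrine markers differed in both multipara libraries: those of α cells averaged 7.09 and 7.14 in virgin untreated islets against 6.27 and 6.67 in multipara untreated 1 and 2, and those of δ cells 6.34 and 6.43 against 5.70 and 5.88.

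**Figure D4:**
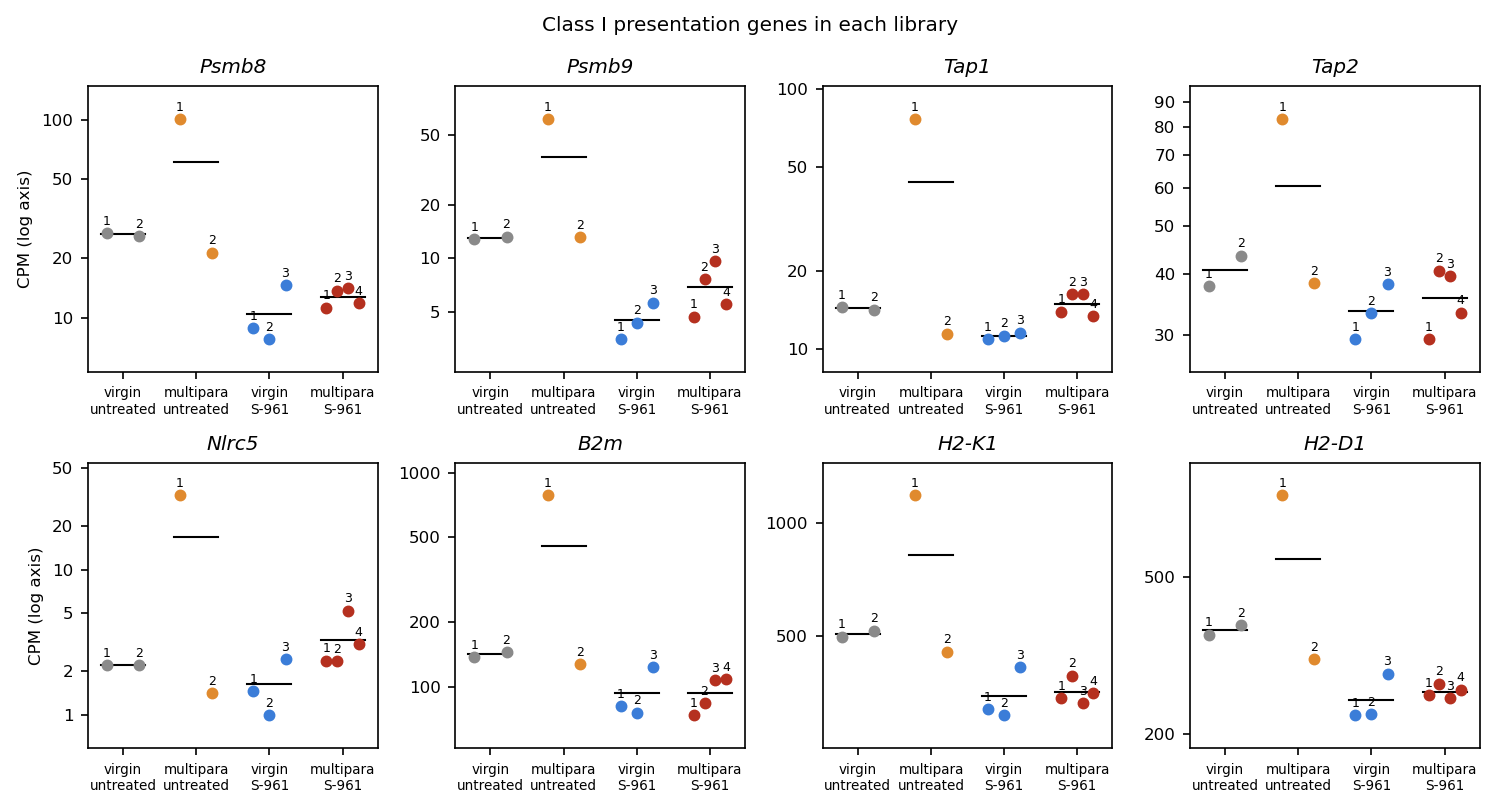
CPM on a log axis of the 8 class I presentation genes in each library of the 4 groups; digits are replicate numbers and the line is the group mean. Multipara untreated 1 is above every other library in all 8 genes (*B2m* 783 CPM against 73.4 to 145 in the other 10), while the 2 multipara and virgin S-961 groups overlap in 7 of the 8.

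The third question was what S-961 did within each parity group. In virgin islets 38 of the 40 genes had a negative log2 fold change with a median of -0.61, against -0.04 over the 17996 genes tested. EdgeR called 9 of the 40 lower and 0 higher, where 17.6% of all genes were called lower and 18.8% higher. In 29 of the 40 all 3 S-961 libraries lay below both untreated ones, against 35.5% of all genes. The lower calls were thus near the share in the whole table and higher calls were missing, while more of the set lay without overlap on the lower side.

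*Ifi35*, an interferon-induced protein that partners NMI, fell from 28.7 and 32.1 CPM in virgin untreated libraries to 11.2, 12.2 and 14.5 CPM in virgin S-961 libraries (log2 fold change -1.29 ± 0.21, SE, edgeR adjusted p = 0.00112). *Isg15* fell from 2.69 and 2.62 CPM to 0.341, 0.755 and 0.365 CPM (-2.45 ± 0.67, adjusted p = 0.015), the largest fall of the 9. *Ifit3* fell from 9.74 and 5.64 CPM to 1.61, 1.48 and 1.82 CPM (-2.25 ± 0.68, adjusted p = 0.0244). The untreated and S-961 libraries did not overlap in any of these 3 genes.

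*Bst2* fell from 11.9 and 15.5 CPM to 3.50, 4.05 and 6.34 CPM (-1.59 ± 0.42, SE, edgeR adjusted p = 0.0136), and *Ifi44*, an interferon-induced protein of the cytoplasm, from 4.09 and 3.46 CPM to 1.58, 1.81 and 0.929 CPM (-1.41 ± 0.37; 0.0124). *Xaf1*, a proapoptotic interferon target, fell from 4.25 and 4.75 CPM to 1.86, 1.33 and 2.46 CPM (-1.28 ± 0.44; 0.0412), and *Trim25* from 75.7 and 75.6 CPM to 51.1, 55.5 and 47.5 CPM (-0.58 ± 0.13; 0.00594). These 4 were again separated between the groups.

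Of class I presentation, the immunoproteasome subunits *Psmb9* and *Psmb8* fell in virgin islets. *Psmb9* went from 12.9 and 13.3 CPM to 3.50, 4.32 and 5.61 CPM (-1.57 ± 0.51, SE, edgeR adjusted p = 0.0335) and *Psmb8* from 26.8 and 25.9 CPM to 8.83, 7.83 and 14.6 CPM (-1.37 ± 0.48; 0.0443). All 8 class I genes were negative, with a median of -0.59. The 4 transcription factors (median -0.39) and 4 sensors (median -0.27) were negative but none was called. *Mx1* went the other way, from 0.834 and 0.362 CPM to 1.36, 1.39 and 1.89 CPM (1.34, adjusted p = 0.20), the single gene of the set whose S-961 libraries all lay above the untreated ones.

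This contrast is fitted over all 11 libraries with a shared spread, so multipara untreated 1 enters through that spread. Without it, 12 of the 40 were called lower in virgin islets, against 16.4% of all genes, adding *Gbp2* (edgeR adjusted p = 0.00288), *H2-D1* (0.00835) and *H2-K1* (0.0174). *H2-K1* was at 498 and 516 CPM in virgin untreated libraries and 319, 307 and 412 CPM with S-961. Fitted on the 5 virgin libraries alone, 21 of the 40 were lower and 1 higher, against 24.3% and 26.9% of all genes. Leaving out virgin S-961 1, 2 or 3 gave 3, 5 or 8 of the 40 called lower, against 13%, 13.2% or 15.8% of all genes. Leaving out virgin untreated 1 or 2 gave 3 each, against 8.98% or 7.9%.

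In multipara islets 35 of the 40 were negative with a median of -0.91, against 0.03 over all genes. EdgeR called 17 of the 40 lower and 0 higher, where 19.4% of all genes were called lower and 18.2% higher. In 11 of the 40 all 4 S-961 libraries lay below both untreated libraries, against 24.5% of all genes. All 8 class I genes were called lower, with a median of -1.97, beside 8 effectors and the sensor *Zbp1*.

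Most of these calls did not remain without multipara untreated 1. Then 22 of the 40 were positive and 18 negative (median 0.20, against 0.12 over all genes), and 2 were called lower, against 10.8% of all genes. These were *Ifi35* and *Bst2*. *Ifi35* was at 40.1 and 30.2 CPM in multipara untreated libraries and 13.3, 21.8, 15.9 and 14.3 CPM with S-961, a log2 fold change of -1.16 ± 0.19 (SE, edgeR adjusted p = 0.00127) with all libraries and -0.93 ± 0.24 (0.0227) without. *Bst2* was at 44.6 and 15.9 CPM and then 5.78, 10.4, 5.06 and 6.03 CPM, with -2.21 ± 0.38 (0.00158) and -1.27 ± 0.37 (0.0393). Multipara untreated 2 alone lay above every multipara S-961 library for both.

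For the 8 class I genes, the fits with and without that library parted. *B2m* was at 783 and 127 CPM untreated and 73.4, 83.9, 107 and 109 CPM with S-961, and its log2 fold change was -2.34 ± 0.49 (SE, edgeR adjusted p = 0.00421) with all libraries and -0.49 (0.238) without. *Psmb9* went from -2.50 ± 0.46 (0.0022) to -0.99 (0.0803) and *Psmb8* from -2.32 ± 0.44 (0.00238) to -0.79 (0.0739). *Tap1* went from -1.62 ± 0.47 (0.0208) to 0.34 and *Nlrc5* from -2.42 ± 0.78 (0.0315) to 1.16, a change of sign in both. *H2-K1* (-1.27 ± 0.28, 0.00573), *H2-D1* (-1.17 ± 0.27, 0.00737) and *Tap2* (-0.82 ± 0.25, 0.0253) were also called with all libraries, and none of the 8 was called without.

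Of the effectors and *Zbp1*, *Gbp2* went from -3.43 ± 0.75 (SE, edgeR adjusted p = 0.00527) to 0.20 and *Zbp1* from -3.26 ± 0.83 (0.0111) to 0.69. *Gbp3* (-2.49 ± 0.64, 0.0116), *Isg15* (-2.19 ± 0.58, 0.0137), *Ifi27* (-1.07 ± 0.26, 0.00806), *Xaf1* (-1.20 ± 0.40, 0.037) and *Ifi44* (-1.0 ± 0.34, 0.0384) were called with all libraries and not without. Without that library *Ifi27* was at -0.72, *Ifi44* at -0.65 and *Xaf1* at -0.53, while *Isg15* was at -0.34 and *Gbp3* at -0.01. Multipara untreated 2 lay above every multipara S-961 library for *Ifi27* and *Ifi44*. For *Xaf1* it was at 4.92 CPM, just below multipara S-961 2 at 4.95 CPM. *Isg15* was at 12.1 and 1.97 CPM untreated and 1.21, 2.62, 1.27 and 1.34 CPM with S-961, so multipara untreated 2 lay inside the S-961 range.

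**Figure D5:**
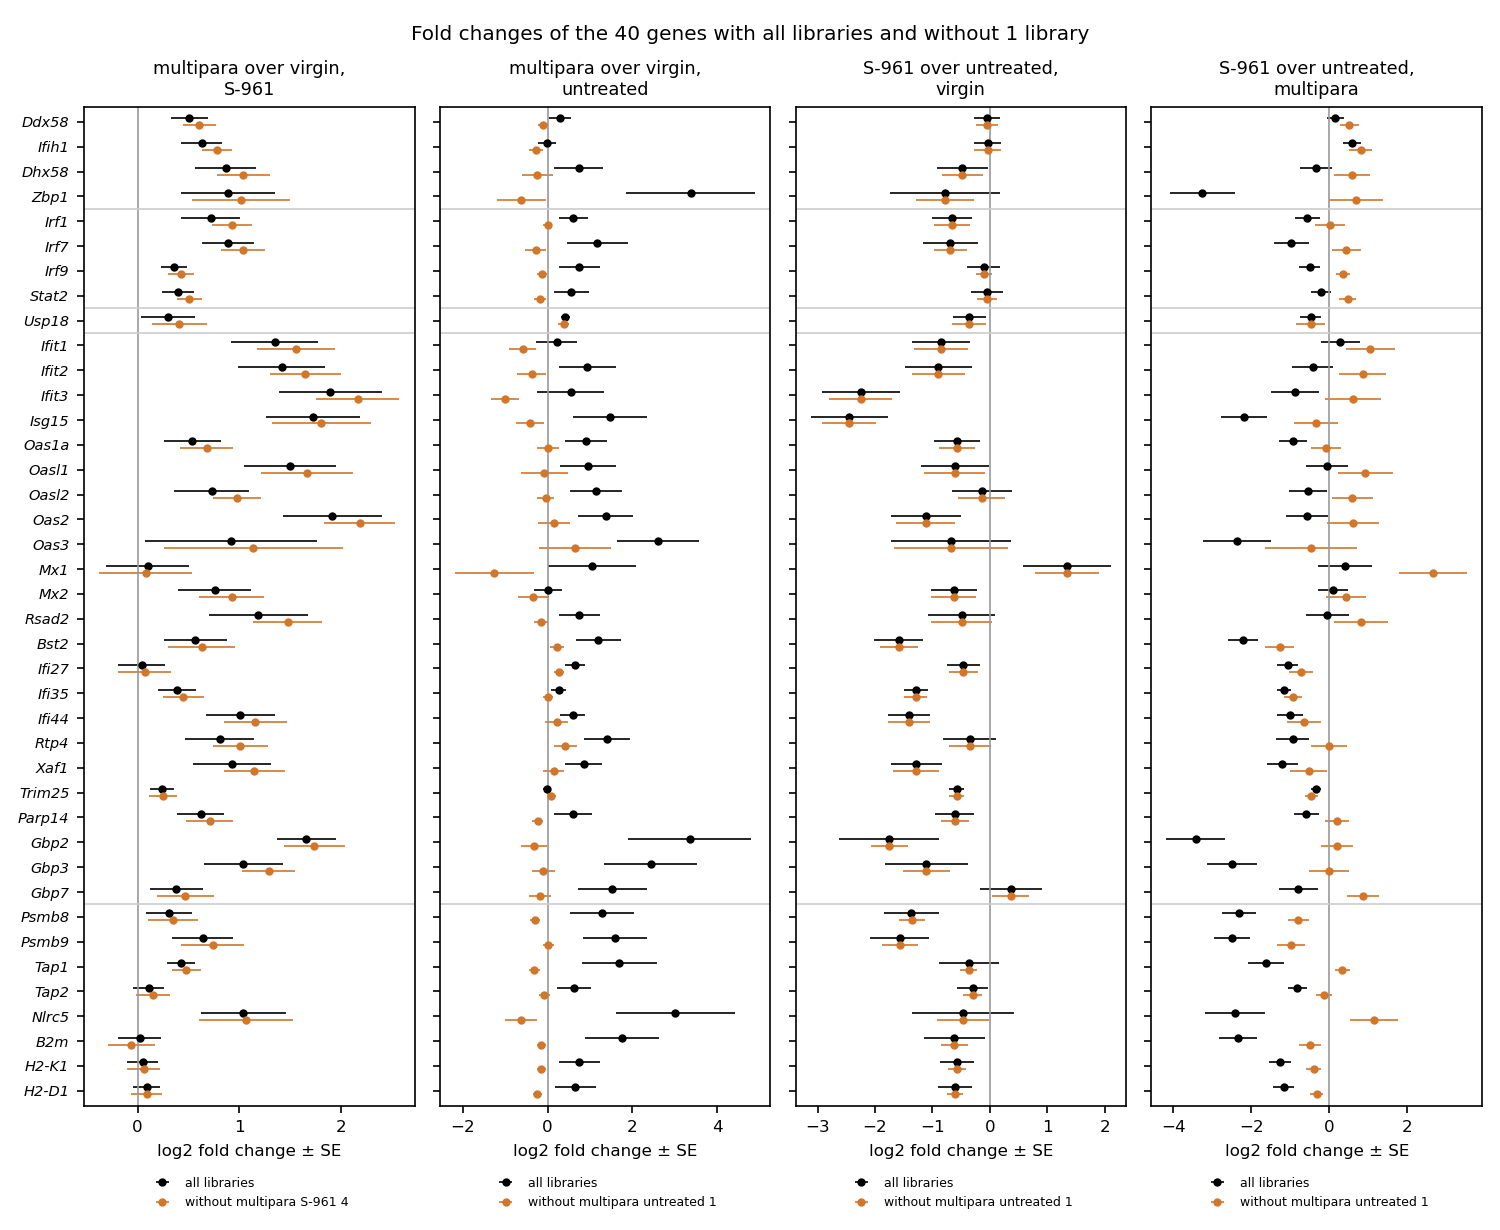
Log2 fold change with its SE of each of the 40 genes (rows, by role) in the 2 parity comparisons and the 2 S-961 comparisons, with all libraries (black) and without 1 library (orange: multipara S-961 4 in the first panel, multipara untreated 1 in the others). In the first panel all 40 black points are above 0, in the third 38 of 40 are below 0, and in the second and the last most orange points move towards 0 or past it.

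Of 21 other genes of class I presentation, 5 were called lower and 1 higher with S-961 in virgin islets, with a median of -0.53. Beside the 17.6% of all genes called lower and 18.8% called higher, the count of lower genes is near the background. The lower ones included the proteasome activator subunit *Psme1* (70.7 and 69.6 CPM untreated, 24.3, 24.7 and 34.96 CPM with S-961) and the peptide-loading factor *Tapbp* (170 and 176 CPM against 100 to 121 CPM). *Psme3* was the higher one (0.68 ± 0.14, SE, edgeR adjusted p = 0.00404). In multipara islets *Psme1*, *Psme2*, *Tapbp*, *Psmb6* and *H2-M3* were called lower also without multipara untreated 1. Of 45 further interferon-induced genes, 6 were called lower in virgin islets (*Ifit3b*, *Ifitm2*, *Ifitm3*, *Lgals3bp*, *Ly6e* and *Oas1c*) and 1 higher (*Ddx60*), shares below those of all genes (17.6% and 18.8%).

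Upstream of interferon, the DNA sensor *Cgas* (1.66 ± 0.43, SE, edgeR adjusted p = 0.0122), the kinases *Tbk1* (0.58 ± 0.11, 0.00299) and *Ikbke* (0.77 ± 0.18, 0.00781) and the adaptor *Mavs* (0.37 ± 0.12, 0.033) rose with S-961 in virgin islets, 4 of the 13 genes on that list, where 18.8% of all genes were called higher. None of the 13 was called lower, where 17.6% of all genes were. *Socs3*, the feedback inhibitor of cytokine receptors, rose in virgin islets (1.37 ± 0.42, 0.0251) and in multipara islets (2.05 ± 0.42, 0.00373). The other 11 receptor, kinase and feedback genes were not called in virgin islets.

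Cell markers moved with S-961 too, and their part was not tested. Acinar markers were higher by a median log2 fold change of 4.90 in virgin and 5.84 in multipara islets, with *Cpa1* at 5.16 and 10.6 CPM in virgin untreated and 210 to 789 CPM in virgin S-961 libraries. Macrophage markers had a median of -0.75 in virgin islets (3 of 14 called lower), and their summed level was 240 to 265 CPM untreated and 141 to 169 CPM with S-961. T, B and NK cell markers had a median of -0.95 in virgin islets (1 of 14 called lower, *Cd79a*). Over all genes 17.6% were called lower in virgin islets, so the counts of called macrophage and lymphocyte markers were near or below that share. In multipara islets the T, B and NK cell list had a median of -3.79 with all libraries and 0.35 without multipara untreated 1.

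The last question was whether the response to S-961 differed between multipara and virgin islets, tested as an interaction over all 11 libraries. Of the 40 genes 17 had a positive and 23 a negative interaction, with a median of -0.32 against -0.04 over all genes. All 8 class I genes were negative (median -0.94), whereas the effectors had a median of 0.08. EdgeR called none of the 40 (0% of all genes lower, smallest adjusted p 0.222), and DESeq2 called none. At an unadjusted p under 0.05, *B2m* alone was lower (-1.72 ± 0.74, SE, unadjusted p = 0.0416, adjusted p = 0.758), against 2.28% of all genes. The next smallest unadjusted p were those of *Ifih1* (0.63 ± 0.33, 0.0802), *Zbp1* (-2.47 ± 1.30, 0.0847), *Tap1* (-1.25 ± 0.72, 0.111), *H2-K1* (-0.69 ± 0.42, 0.13) and *Nlrc5* (-1.95 ± 1.21, 0.136).

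Without multipara untreated 1 the interaction turned: 38 of the 40 were positive with a median of 0.72, against -0.01 over all genes, and all 8 class I genes were positive (median 0.44). At an unadjusted p under 0.05, 8 of the 40 were positive (*Gbp2*, *Ifit3*, *Tap1*, *Isg15*, *Irf7*, *Ifit1*, *Ifih1* and *Ifit2*), against 4.07% of all genes, and edgeR called none of the 40 or of the other genes (smallest adjusted p 0.0727). *Gbp2* had 1.95 (unadjusted p = 0.00465) and *Ifit3* 2.87. In that fit multipara untreated 2 is the lone untreated multipara library, and the interaction shares its libraries with the 4 comparisons above, so it is no separate evidence for them.

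Side by side, mean log2 CPM of the 23 effectors was 2.44 and 2.21 in virgin untreated libraries and 2.22 in multipara untreated 2, and all 3 virgin S-961 libraries (1.45 to 1.54) and multipara S-961 4 (1.79) were below these, while multipara S-961 1 and 3 (2.35 and 2.32) were level with them and multipara S-961 2 (2.90) was above. For class I, these 3 untreated libraries stood at 5.20 to 5.46 and the S-961 libraries of both parities at 4.51 to 5.24, with a slight overlap. Multipara untreated 1 stood outside both ranges, at 3.88 for the effectors and 7.47 for class I.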

How the data were processed

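RNA was prepared with a stranded poly(A) kit per the labels, and the submitters' processing notes name STAR, RSEM and the builds GRCm38 and mm10, with no versions. The authors deposited estimated counts per gene and library, neither normalized nor pooled, and the gene earlier named *Mb21d1* is listed there as *Cgas*. Totals were 22028507 to 32234146, and 4449 to 5162 genes per library were not whole. Here counts were rounded, filtered with filterByExpr (minimum count 10, minimum total 15), scaled with TMM and fitted with edgeR 4.0.16 (quasi-likelihood, R 4.3.3). P-values were adjusted by Benjamini-Hochberg over all genes tested, with a threshold of 0.05, and SE is that of the log2 fold change. The parity comparisons used the libraries of that treatment, and the S-961 comparisons and the interaction all 11. The fits were tested on simulated data. List scores are means of log2 CPM (prior count 2). Tables were made with pandas 2.3.3 and numpy 2.4.6 under Python 3.11.15, figures with matplotlib 3.10.9. Genes given in full were those past the threshold or, with fewer than 6, the 6 with the smallest unadjusted p. The members and lists were chosen with earlier results of these data known. Alternatives were DESeq2 1.42.0, its size factors, other filters, other sets of libraries, a replicate block and leaving out each library. Same-numbered S-961 libraries did not deviate together (r = 0.056, 0.014 and 0.092), and the 2 untreated pairs (r = 0.285) were too few to decide, so the numbers were not taken as pairs. No column of per-sample values went unused. One gene of the pathway lists is not reported here.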

Additional observations from a re-analysis of the deposited data

Results flagged for a closer look

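Of 46 values looked at in the 4 multipara S-961 libraries (40 genes and 6 list scores), 2 had a lowest or highest library far from the others, and chance alone marks about 1 group in 20. *Isg15* was at 2.62 CPM in replicate 2 and 1.21 to 1.34 CPM in the other 3, a gap of 0.911 of the whole range. *Parp14* was at 28.2 CPM in replicate 3 and 16.1 to 17.8 CPM in the other 3, a gap of 0.864 of the range. The groups of 2 and 3 libraries are too small for this rule, so multipara untreated 1 could not be marked by it.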

How the results depend on the processing

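Counts of genes called, over leaving out each library in turn, ran from 0 to 8 for parity under S-961, 0 to 32 for parity untreated, 3 to 12 for S-961 in virgin, 2 to 25 for S-961 in multipara islets and 0 to 2 for the interaction. The median log2 fold change ran from -0.15 to 1.36 for parity untreated, -1.35 to 0.20 for S-961 in multipara and -0.88 to 0.72 for the interaction. Its sign turned without multipara untreated 1 (-0.15, 0.20 and 0.72). So did *Gbp2* for parity untreated (-0.33, range -0.33 to 4.27). For S-961 in multipara, *Gbp2* (0.20, range -4.36 to 0.20), *Zbp1* (0.69, range -4.20 to 0.69), *Tap1* (0.34, range -2.41 to 0.34) and *Nlrc5* (1.16, range -3.35 to 1.16) turned. In the interaction, *B2m* (0.13, range -2.50 to 0.13), *Zbp1* (1.48, range -3.41 to 1.48), *Tap1* (0.71, range -2.04 to 0.71), *H2-K1* (0.17, range -1.22 to 0.17) and *Nlrc5* (1.63, range -2.88 to 1.63) turned. Among named genes with a library left out, 342 values kept their side, 55 lost the call, 11 gained it and these 10 turned, all without multipara untreated 1. The lost calls came from leaving out libraries of every group. Under the other alternatives 235 kept it, 17 lost it, 5 gained it and 0 turned.

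DESeq2 called 4 genes for parity under S-961. Fitted on virgin libraries alone, 22 were called for S-961, where 24.3% of all genes were called lower and 26.9% higher. The replicate block gave 2 genes called for parity under S-961 and 9 for S-961 in multipara. With the block, 309 of 16784 genes were called higher and 33 lower for parity under S-961. For S-961 in multipara islets, 2839 of 17996 genes were called higher and 2791 lower with it. The block moved no other count of called members by more than 1.5 times. The replicate numbers were not taken as pairs. Over all genes, parity under S-961 gave 0 calls with edgeR, 369 with DESeq2, 342 with the replicate block and 447 higher and 78 lower without multipara S-961 4. Other counts are given in the text. Low counts limit *Isg15*, *Oas2*, *Oas3* and *Oasl1*. They also limit *Mx1*, *Zbp1* and *Nlrc5*, which rested on 4, 10 and 23 reads in multipara untreated 2. The cause of the changes with tool or block was not tested.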
